A study of Homo sapiens with 15 samples.

Results

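The genes described here are 10 inflammatory cytokines and chemokines whose mRNA is commonly read in airway cells exposed to particles: IL1A, IL1B, CXCL8, CXCL1, CXCL2, CXCL3, CCL2, IL6, LIF and IL11. They were chosen by symbol, with no measured value in the rule, and each symbol matched 1 Entrez gene number, so that they are 10 of the 28395 genes in the table of counts. All 10 were among the 16740 genes that passed the filter on low counts and were tested. The RNA came from BEAS-2B, a widely used human bronchial epithelial cell line, grown here in serum-containing medium with Plasmocin, an anti-mycoplasma antibiotic, in every group. The exposed cultures received nanoplastics made from polyethylene terephthalate (PET-NPLs) at 50 µg/mL, renewed with the medium, and the control cultures received none. After 24 h there were 2 control and 2 exposed samples, after 15 weeks 2 control and 2 exposed samples, and after 30 weeks 3 control and 4 exposed samples. The labels place 24 h and 15 weeks in batch 1 and 30 weeks in batch 2, so time and batch cannot be told apart between 15 and 30 weeks. They do not say whether replicates were separate cultures, so the p-values measure the spread between these samples, which may be technical.

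Total counts ran from 23143202 to 31459990 per sample, which puts 3 counts at 0.0885 to 0.129 CPM, the counts relative to the TMM-scaled library size. Exposed replicate 2 at 30 weeks stood apart, with a Pearson correlation of log2 CPM of 0.976 to 0.981 with the other exposed samples, which correlated at 0.991 with each other. For part of the results the value without that replicate is given too. Among the epithelial markers, KRT8 was at 127 CPM or more in every sample, while EPCAM and CDH1 stayed under 1 CPM and TP63 at 3 counts or fewer. The 10 immune markers summed to 2.15 to 8.25 CPM in every sample, mostly CD14, at 1.29 to 7.15 CPM. CSF1R read 0.280 to 1.07 CPM, and CD3E, MS4A1 and FCGR3A had 0 counts in all samples at 30 weeks. In bulk RNA, fewer cells of a kind and less RNA per cell cannot be told apart.

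Interleukin 1α and interleukin 1β are alarm cytokines that bind a shared receptor and switch on the transcription factor NF-κB through MYD88, IRAK kinases and TRAF6. NF-κB in turn drives CXCL8, CXCL1, CXCL2 and CXCL3, which draw in neutrophils, CCL2, which draws in monocytes, and IL6. LIF, IL11 and IL6 form a cytokine family that signals through the shared receptor subunit gp130 (encoded by IL6ST) to JAK kinases and STAT3. In the airway the epithelium itself makes these messengers after inhaled particles, microbes or injury, and NFKBIA, TNFAIP3 and other NF-κB targets act as brakes on the response.

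The 4 CXC chemokine genes lie together on chromosome 4 (GRCh38, GENCODE annotation): CXCL8 at chr4:73740519-73743716 and CXCL1 at chr4:73869393-73871308 on the plus strand, CXCL3 at chr4:74036589-74038807 and CXCL2 at chr4:74097040-74099196 on the minus strand. IL1A (chr2:112773925-112784493) and IL1B (chr2:112829751-112836816) are neighbours on the minus strand of chromosome 2. CCL2 lies at chr17:34255274-34257208 and IL11 at chr19:55364382-55370463. IL6 at chr7:22725884-22732002 overlaps IL6-AS1 and STEAP1B on the opposite strand, and LIF at chr22:30240453-30246759 overlaps LIF-AS1 and LIF-AS2. The library kit kept strand, but the counting strand is not given in the sources used here, so reads of these pairs cannot be told apart.

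The stretches just before the gene starts of the CXC chemokines and IL6 are shown to set CXCL1, called at 30 weeks, beside its closest relatives and to mark where motifs of NF-κB and AP-1 stand. Each holds the 150 bases before the start in the RefSeq promoter table (build GRCh38.p14), at chr4:73869243-73869392 (plus strand), chr4:74099196-74099345 (minus), chr4:74038690-74038839 (minus), chr4:73740419-73740568 (plus) and chr7:22727050-22727199 (plus), in the order printed. The starts are those of RefSeq, and the GENCODE models of CXCL2, CXCL3, CXCL8 and IL6 begin upstream of them, inside or beyond the printed stretch. Capitals mark the NF-κB consensus in CXCL1, CXCL2, CXCL3 and IL6, and in CXCL8 first an AP-1 motif (TGANTCA) and then a TATA box (TATAAA).
CXCL1: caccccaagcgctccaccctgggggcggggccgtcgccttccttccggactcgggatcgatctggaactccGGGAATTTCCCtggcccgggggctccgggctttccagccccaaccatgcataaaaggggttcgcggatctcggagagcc
CXCL2: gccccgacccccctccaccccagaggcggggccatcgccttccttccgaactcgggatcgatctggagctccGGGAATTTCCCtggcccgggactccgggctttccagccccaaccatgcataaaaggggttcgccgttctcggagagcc
CXCL3: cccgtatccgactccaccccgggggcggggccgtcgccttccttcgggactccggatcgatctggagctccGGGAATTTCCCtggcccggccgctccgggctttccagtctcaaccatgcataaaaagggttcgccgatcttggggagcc
CXCL8: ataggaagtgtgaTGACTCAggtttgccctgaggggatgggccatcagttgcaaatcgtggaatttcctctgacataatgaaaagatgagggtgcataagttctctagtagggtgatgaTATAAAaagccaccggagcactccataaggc
IL6: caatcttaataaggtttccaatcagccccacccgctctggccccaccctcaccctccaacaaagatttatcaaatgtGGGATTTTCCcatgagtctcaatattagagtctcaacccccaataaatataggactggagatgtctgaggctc

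The RefSeq table held 8 of the 10 members, all but CCL2 and LIF, with 250 bases before and 50 after each start. Both strands were searched. The NF-κB consensus stood in 4 members, against 5.909% of the 35116 promoters of the same length; in CXCL1, CXCL2 and CXCL3 the marked letters are 2 overlapping matches on opposite strands. AP-1 stood in 3 members (IL1A, CXCL8 and IL11), against 7.709%, and TATAAA in CXCL8 alone, against 11.53%. CXCL1 and CXCL3 were identical at 84.7% of the 300 bases in a global alignment, CXCL1 and CXCL2 at 80% and CXCL2 and CXCL3 at 78.7%, while CXCL8 reached 54.7% to 57.3% with each of them. A match is a description of letters, and the absence of one says nothing about the factor. The transcripts of these chemokines also share sequence: 5.33% of the 50-base windows of CXCL1 occur in CXCL2 and 5.07% of those of CXCL2 in CXCL3, so a small part of their reads could have been split between them, while CXCL8 shared none.

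The 10 genes were expressed at low levels in BEAS-2B cells at every time point. Averaged over all 15 samples, IL11 stood at 13.1 CPM, LIF at 6.66, CCL2 at 4.58 and the other 7 members between 0.154 and 1.28, which for CXCL3 meant 0 to 13 counts in a sample. Per kilobase of exon, IL11 was highest at 4.89 CPM per kb, followed by CCL2 at 2.37, LIF at 1.72 and CXCL1 at 0.942, with the other 6 at 0.0693 to 0.536. The related genes TNF, CXCL10 and IL33 and the chemokine receptor CCR2 had 0 counts in every sample, which allows up to 3 counts, 0.0885 to 0.129 CPM by sample (counting error only).

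The members that passed the test with exposure to PET-NPLs did so at 30 weeks, when exposed cells held more CXCL1 and IL1B mRNA and less LIF mRNA than passage-matched controls. With edgeR's quasi-likelihood test and Benjamini-Hochberg adjustment over all 16740 genes, 0 members were called at 24 h, where 0% of all genes were called; 0 members and 277 genes (1.65%) had an unadjusted p under 0.05. At 15 weeks 0 members were called (0% of all genes), with 1 member and 823 genes (4.92%) at an unadjusted p under 0.05; DESeq2 called 0 genes at 24 h and 17 at 15 weeks, where it gave 8 of the 10 members an adjusted p and called 0 of them. With each time point fitted alone, 304 of 15484 genes were called at 15 weeks, LIF among them. At 30 weeks 3 of 10 members were called, against 23.7% of all genes, 2 higher (12% of all genes) and 1 lower (11.7%). The share of members called at 30 weeks was thus near that of all genes. The members' median log2 fold change at 24 h was 0.29 (0.00086 over all genes). After 15 weeks it was -0.16 (0.0051), and after 30 weeks 0.28 (0.0078).

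**Figure D1:**
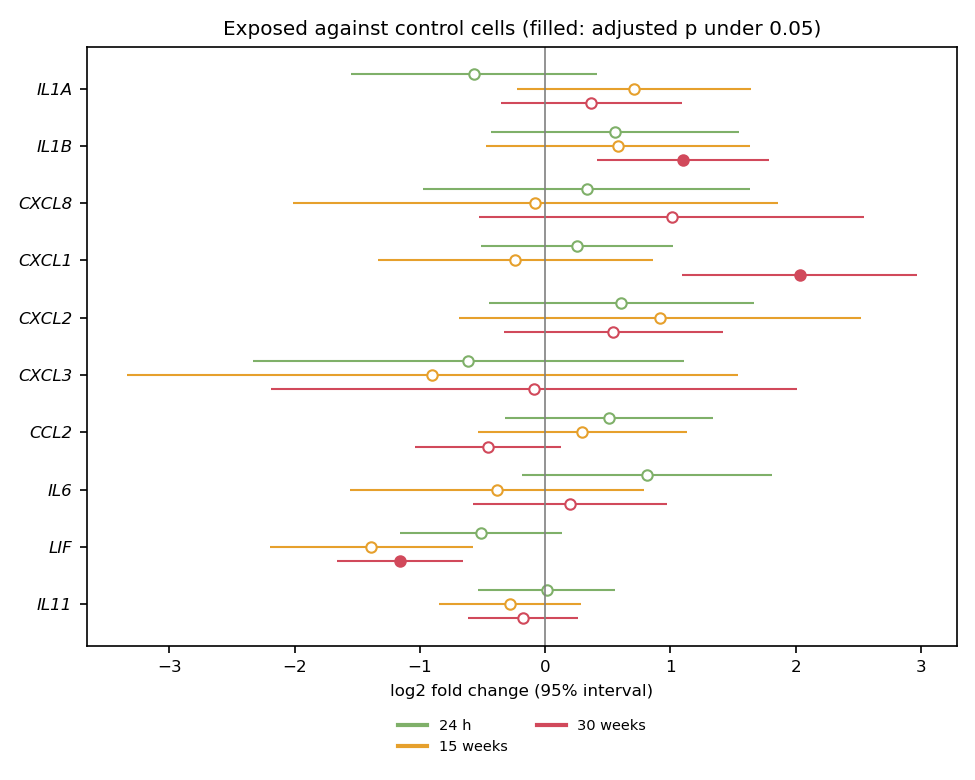
Log2 fold change of exposed against control cells with its 95% interval for each member (edgeR fit on all 15 samples), coloured by time point; the intervals are not adjusted for multiple tests, and filled points have an adjusted p under 0.05. The filled points are CXCL1 (2.03), IL1B (1.10) and LIF (-1.16), all at 30 weeks, and the widest intervals belong to CXCL3 and CXCL8.

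IL1B encodes interleukin 1β, whose precursor is cleaved by caspase 1. At 30 weeks its level was 0.645, 1.12 and 1.04 CPM in the 3 controls and 1.70, 2.14, 1.67 and 2.57 CPM in the 4 exposed samples. All exposed samples lay above all controls, and the level rose 2.14-fold (log2 1.10, SE 0.32, adjusted p = 0.0218 by edgeR). The call was kept without exposed replicate 2 (log2 1.07, adjusted p = 0.0227), but not without control replicate 1, the lowest control (log2 0.91, adjusted p = 0.103), nor without exposed replicate 4, the highest (log2 0.97, adjusted p = 0.0628). It was also lost with limma-voom and surrogate variables (log2 0.87, adjusted p = 0.0706) and with the replicate block (log2 0.97, adjusted p = 0.0727). At 24 h IL1B read 0.866 and 0.350 CPM in controls and 0.681 and 1.11 CPM in exposed cells, and at 15 weeks 0.316 and 0.442 against 0.465 and 0.682 CPM. The groups overlapped at 24 h and stood apart at 15 weeks, and neither difference passed the test (log2 0.56 and 0.58, adjusted p = 1 for both in edgeR).

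IL1A encodes the form of interleukin 1 that is active without cleavage and is released by damaged cells. Its level was 1.45 and 0.875 CPM in controls and 0.808 and 0.762 CPM in exposed cells at 24 h. At 15 weeks it was 0.600 and 0.973 against 0.900 and 1.69 CPM. At 30 weeks it was 0.688, 1.12 and 1.18 CPM in controls against 0.978, 1.02, 1.91 and 1.27 CPM in exposed samples. Controls and exposed samples overlapped at 15 and 30 weeks, and the log2 differences of -0.57, 0.71 and 0.37 did not pass the test at any time point (adjusted p = 1, 1 and 0.480 in edgeR). IL1A was the member that varied least between conditions, 1.65-fold from the lowest to the highest mean, and each of the 6 conditions overlapped its neighbour in the order of means.

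CXCL1, the chemokine GROα, showed the largest difference with exposure among the members. At 30 weeks it had 6, 4 and 4 counts in the controls (0.258, 0.144 and 0.143 CPM) and 24, 32, 10 and 18 counts in the exposed samples (0.869, 1.12, 0.348 and 0.634 CPM). All 4 exposed samples lay above all 3 controls, on counts that were near the floor in controls. The level was 4.09-fold higher in exposed cells (log2 2.03, SE 0.44, 95% interval 1.09 to 2.97, adjusted p = 0.00342 by edgeR). Without exposed replicate 2, the highest, the log2 difference was 1.76 (adjusted p = 0.00543), and over the other alternatives that could test CXCL1 the adjusted p ran from 0.000494 to 0.0367. At 24 h CXCL1 read 3.05 and 3.43 CPM in controls and 4.68 and 3.05 CPM in exposed cells, and at 15 weeks 0.411 and 0.413 against 0.372 and 0.325 CPM. Neither of these differences passed the test (log2 0.25 and -0.24, adjusted p = 1 for both in edgeR).

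CXCL8, or interleukin 8, is the classical neutrophil attractant of human airway epithelium. At 30 weeks it read 0.430, 0.144 and 0.251 CPM in controls and 0.217, 1.40, 0.382 and 0.176 CPM in exposed samples. A single exposed sample, replicate 2, held 40 counts, against 5 to 11 in the other 3 and 4 to 10 in the controls. The log2 difference of 1.01 (SE 0.72, adjusted p = 0.345 in edgeR) became -0.05 without that sample. At 24 h CXCL8 read 2.91 and 3.57 CPM in controls and 4.34 and 3.81 CPM in exposed cells, and at 15 weeks 0.253 and 0.442 against 0.589 and 0.0649 CPM. Both exposed samples at 24 h lay above both controls, and the log2 difference was 0.33 with a 95% interval of -0.98 to 1.64.

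CXCL2 and CXCL3, the chemokines GROβ and GROγ, share most of their promoter letters with CXCL1. At 30 weeks CXCL2 read 0.731, 0.325 and 0.537 CPM in controls and 0.869, 0.561, 0.661 and 0.986 CPM in exposed samples, overlapping ranges with a log2 difference of 0.54 (95% interval -0.33 to 1.42, adjusted p = 0.376 by edgeR). At 24 h it read 0.901 and 0.665 against 1.45 and 0.953 CPM, and at 15 weeks 0.190 and 0.0295 against 0.155 and 0.260 CPM. CXCL3 was at the edge of detection: 12 and 13 counts in controls and 8 and 6 in exposed cells at 24 h, 3 and 5 against 4 and 0 at 15 weeks, and 0 to 4 counts in every sample at 30 weeks. A difference in CXCL3 was not detectable at this depth, with 95% intervals of -2.34 to 1.11, -3.34 to 1.54 and -2.19 to 2.01 on the log2 scale at the 3 time points.

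**Figure D2:**
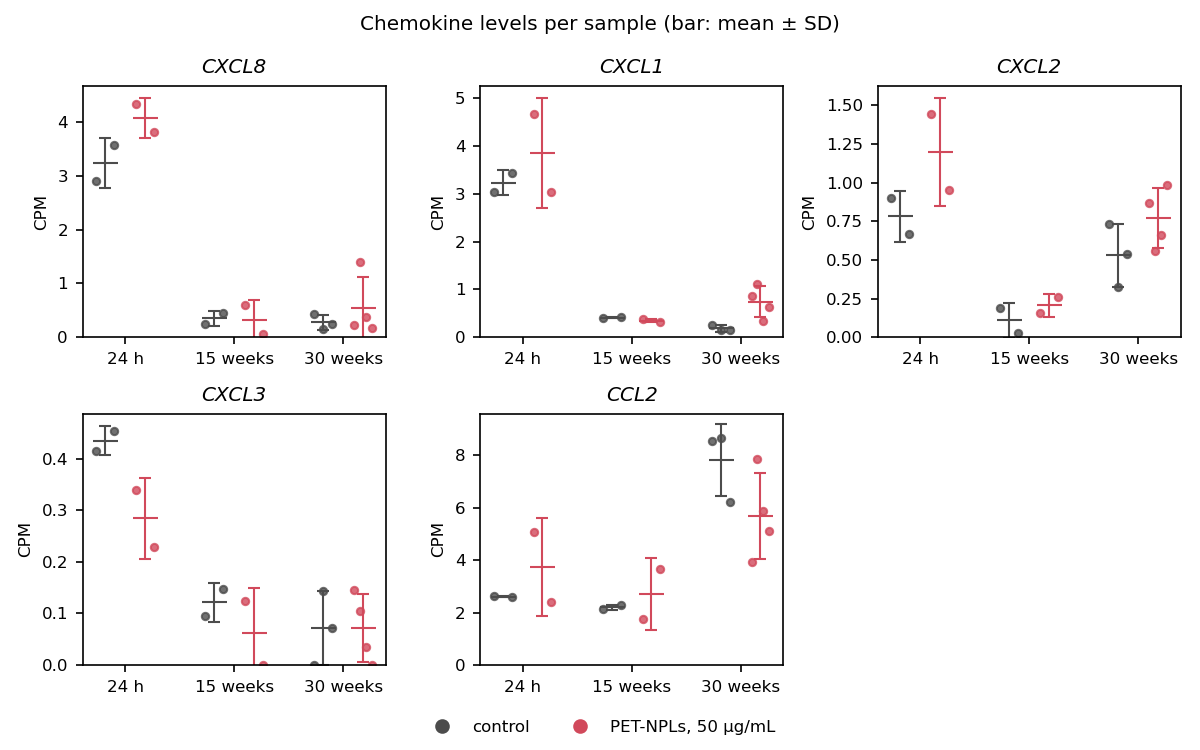
Level of the 5 chemokines in CPM in each sample (points), with the mean and SD of each group (bars; those reaching below 0 are cut at the axis), by time point for control and exposed cells. CXCL8 and CXCL1 sat between 2.91 and 4.68 CPM at 24 h and at 1.40 CPM or less later, and exposed replicate 2 gave the CXCL8 point at 1.40 CPM.

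CCL2, also known as MCP-1, had the highest level of the 5 chemokines in the average over all 15 samples, per kilobase too. At 24 h, however, the means of CXCL8 and CXCL1 were above it in CPM. In controls they were both 3.24 against 2.61 CPM, and in exposed cells 4.07 and 3.86 against 3.73 CPM. Per kilobase CXCL1 was above CCL2 at 24 h, at 2.38 against 1.35 CPM per kb in controls and 2.84 against 1.93 in exposed cells. At 24 h CCL2 read 2.63 and 2.59 CPM in controls and 5.06 and 2.40 CPM in exposed cells, so that 1 exposed sample was high and the other below both controls. At 15 weeks it read 2.12 and 2.27 against 1.74 and 3.67 CPM. At 30 weeks the controls read 8.56, 8.66 and 6.23 CPM and the exposed samples 3.91, 7.85, 5.88 and 5.11 CPM. The groups overlapped at every time point, and the log2 difference at 30 weeks was -0.46 (95% interval -1.04 to 0.12, adjusted p = 0.25 in edgeR). Without exposed replicate 2 it was -0.65 (adjusted p = 0.0562). With limma-voom and surrogate variables CCL2 was called lower (-0.67, adjusted p = 0.0294).

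IL6 encodes the cytokine that drives the acute phase response. Its level at 24 h was 1.04 and 1.05 CPM in controls and 2.51 and 1.18 CPM in exposed cells; both exposed samples lay above both controls, by a wide margin in replicate 1 alone, with a log2 difference of 0.81 (95% interval -0.19 to 1.81, adjusted p = 1 by edgeR). At 15 weeks it was 0.600 and 0.560 against 0.589 and 0.292 CPM. At 30 weeks it was 1.55, 0.794 and 1.18 CPM in controls and 0.869, 2.07, 0.973 and 1.44 CPM in exposed samples. These overlapped, with a log2 difference of 0.20 (adjusted p = 0.744 in edgeR) that was -0.09 without exposed replicate 2.

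LIF, leukemia inhibitory factor, was the only member whose exposed samples lay below the controls without overlap at all 3 time points. At 24 h it read 12.3 and 12.9 CPM in controls and 8.34 and 9.30 CPM in exposed cells. At 15 weeks it read 1.80 and 2.92 against 1.09 and 0.714 CPM. At 30 weeks it read 13.6, 9.13 and 8.95 CPM in controls and 4.35, 7.04, 4.10 and 3.38 CPM in exposed samples. In edgeR the 24 h difference was -0.51 on the log2 scale (SE 0.31, adjusted p = 1), and the 15-week difference was -1.39 (SE 0.38, unadjusted p = 0.00228, adjusted p = 0.651). By 30 weeks it was -1.16 (SE 0.24, adjusted p = 0.00209 in edgeR), a 2.23-fold lower level that was called. At 30 weeks the adjusted p ran from 2.36e-05 to 0.0219 over the 16 alternatives, and the difference was -1.42 without exposed replicate 2, the highest exposed sample. At 15 weeks LIF passed the threshold when each time point was fitted alone (log2 -1.40, adjusted p = 0.0496, with 304 of 15484 genes called) and in none of the other alternatives. The difference in the LIF effect between time points did not pass the test (-0.87 from 24 h to 15 weeks and 0.23 from 15 to 30 weeks, adjusted p = 1.00 and 0.887).

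IL11, known for its part in tissue remodelling and fibrosis, had the highest level per kilobase in the average over all 15 samples, though at 30 weeks CCL2 was above it (4.04 against 2.99 CPM per kb in controls, 2.94 against 2.64 in exposed cells). It read 24.4 and 29.6 CPM in controls and 31.05 and 23.4 CPM in exposed cells at 24 h. At 15 weeks it read 8.37 and 11.1 against 7.85 and 8.18 CPM. At 30 weeks it read 9.55, 7.44 and 7.05 CPM in controls and 6.77, 10.1, 6.47 and 4.96 CPM in exposed samples. The log2 differences were 0.01, -0.28 and -0.18, and at 30 weeks the 95% interval of -0.62 to 0.27 was the narrowest of any member. Without exposed replicate 2, the highest exposed sample, the 30-week difference was -0.40 (adjusted p = 0.0814 in edgeR).

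**Figure D3:**
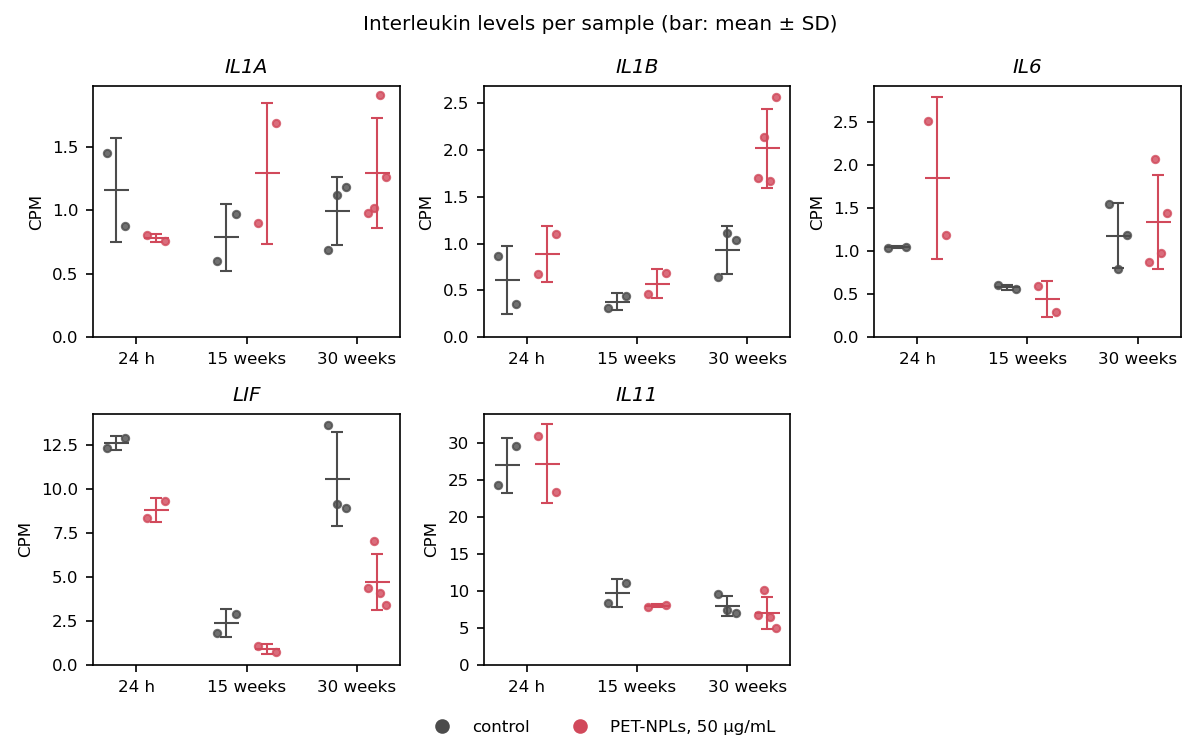
Level of the 5 interleukins and related cytokines in CPM in each sample (points), with the mean and SD of each group (bars), by time point for control and exposed cells. LIF lay lower in exposed than in control samples at all 3 time points, and IL1B at 30 weeks lay at 1.67 to 2.57 CPM in exposed cells against at most 1.12 CPM in controls.

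Over the members, exposed and control samples did not overlap for 3 genes higher and 3 lower at 24 h (26% of all genes, 12.9% higher and 13.1% lower). They did not overlap for 1 higher and 3 lower at 15 weeks (45.3%, 23.4% and 22%), and for 2 higher and 1 lower at 30 weeks (27.3%, 14.3% and 13%). The change in the exposure effect between time points was tested as an interaction. From 24 h to 15 weeks it passed for 0 members (0% of all genes; 0 members and 3.85% of genes at an unadjusted p under 0.05 in edgeR, and 0 called by DESeq2), and from 15 to 30 weeks also for 0 (4.74% of all genes; 1 member and 15.3% of genes at an unadjusted p under 0.05). That member was CXCL1, whose effect was 2.27 log2 units higher at 30 than at 15 weeks (SE 0.69, adjusted p = 0.0821 by edgeR). DESeq2 put it past the threshold (2.31, adjusted p = 0.0391), as did edgeR without exposed replicate 3 at 30 weeks (2.50, adjusted p = 0.0279), and over its 18 alternatives the adjusted p ran from 0.0279 to 0.249.

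Other features of the 30-week samples also differed between exposed and control cells. The 10 epithelial markers summed to 314 to 412 CPM in the 30-week controls and 881 to 1097 CPM in the exposed samples. Most of that sum was KRT8 (127 to 187 against 541 to 710 CPM) and KRT18 (179 to 220 against 313 to 382 CPM). KRT19 was also higher, at 0.358 to 1.08 against 2.17 to 3.99 CPM. EPCAM, CDH1, KRT7 and KRT17 overlapped between the groups, and KRT5, KRT14 and TP63 had at most 1 count. The 12 skeletal muscle markers summed to 308 to 397 against 31.5 to 42.6 CPM, with MYF5 and MYF6 at 0 counts in both groups. The 10 immune markers summed to 2.15 to 3.04 CPM in controls and 4.31 to 6.54 CPM in exposed samples, mostly CD14 (1.29 to 1.83 against 3.75 to 5.63 CPM). The 9 mesenchymal markers summed to 1949 to 2479 against 1608 to 1831 CPM, mostly VIM (1466 to 1877 against 1189 to 1407 CPM). COL1A2 went the other way, at 0 to 0.650 against 1.74 to 5.01 CPM. The 5 endothelial markers summed to 0.559 to 0.903 against 2.15 to 3.01 CPM. Of the 12 muscle markers, TNNT1, MYOD1 and CHRNA1 made up most of the sum in controls. The epithelial sums at 15 weeks were 856 to 899 CPM in controls and 826 to 1036 CPM in exposed cells. In the same order, muscle markers summed to 21.2 to 31.3 and 16.2 to 20.7 CPM, and immune markers to 4.49 to 4.90 and 3.29 to 4.02 CPM. Mesenchymal markers summed to 1325 to 1339 and 1380 to 1406 CPM, and endothelial markers to 0.695 to 0.855 and 0.620 to 1.36 CPM. The 6 most abundant small noncoding RNAs took 22.3% to 31.03% of counts in controls and 17.0% to 21.5% in exposed samples. Leaving those RNAs out gave log2 differences of 2.04 for CXCL1, 1.10 for IL1B and -1.15 for LIF. For epithelial, muscle and mesenchymal markers the 30-week controls lay further from the 15-week sums than the exposed samples did. For endothelial markers it was the reverse. The part of the marker differences in the cytokine results was not tested.

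More members were called between time points than between exposed and control cells, and the difference between these counts was not tested. From 24 h to 15 weeks, within batch 1, 5 of 10 members fell in control cells, against 12.2% of all genes called lower (24.9% called in all), and 6 of 10 in exposed cells, against 12.5% (26% in all); the 2 comparisons share no sample. In controls the log2 difference was -3.20 for CXCL8 (SE 0.75, adjusted p = 0.00526), a 9.16-fold lower level, -2.96 for CXCL1 (SE 0.43, adjusted p = 0.000110), -2.82 for CXCL2 (SE 0.65, adjusted p = 0.00445), -2.41 for LIF (SE 0.33, adjusted p = 5.95e-05) and -1.47 for IL11 (SE 0.27, adjusted p = 0.000704), all in edgeR. In exposed cells it was -3.60 for CXCL8, -3.45 for CXCL1, -3.28 for LIF, -2.51 for CXCL2, -2.04 for IL6 and -1.76 for IL11, with adjusted p between 7.25e-06 and 0.00780 in edgeR. IL6 in controls did not pass (log2 -0.84, adjusted p = 0.257), and whether its fall differed between exposed and control cells is the interaction given above (-1.20, adjusted p = 1.00). IL1A, IL1B, CXCL3 and CCL2 were not called in either arm. The epithelial markers summed to 2125 to 2462 CPM in controls at 24 h and 856 to 899 CPM at 15 weeks, with KRT7 going from 1215 CPM or more to 23.4 CPM or less, and their part in the result was not tested.

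From 15 to 30 weeks, where the batch changed too, the members parted. In control cells 4 of 10 members rose, against 25.6% of all genes called higher (50.3% called in all): LIF (log2 2.15, SE 0.31), CXCL2 (2.24, SE 0.64), CCL2 (1.83, SE 0.36) and IL1B (1.30, SE 0.45), with adjusted p between 4.42e-05 and 0.0235 in edgeR. In exposed cells 5 of 10 rose, against 23.3% (46% in all): LIF (2.38), CXCL2 (1.87), IL1B (1.81), IL6 (1.59) and CCL2 (1.08), with adjusted p between 6.41e-05 and 0.0164 in edgeR. CXCL8 and IL11 were not called in either arm (log2 -0.38 and 0.71 for CXCL8, -0.28 and -0.18 for IL11), and at 30 weeks both were still below every 24 h sample. CXCL1 read -1.19 in controls (adjusted p = 0.0770) and 1.08 in exposed cells (adjusted p = 0.0530), neither past the threshold. The control count was 2 without control replicate 2 of 15 weeks, and the exposed count 3 without exposed replicate 1 of 15 weeks.

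**Figure D4:**
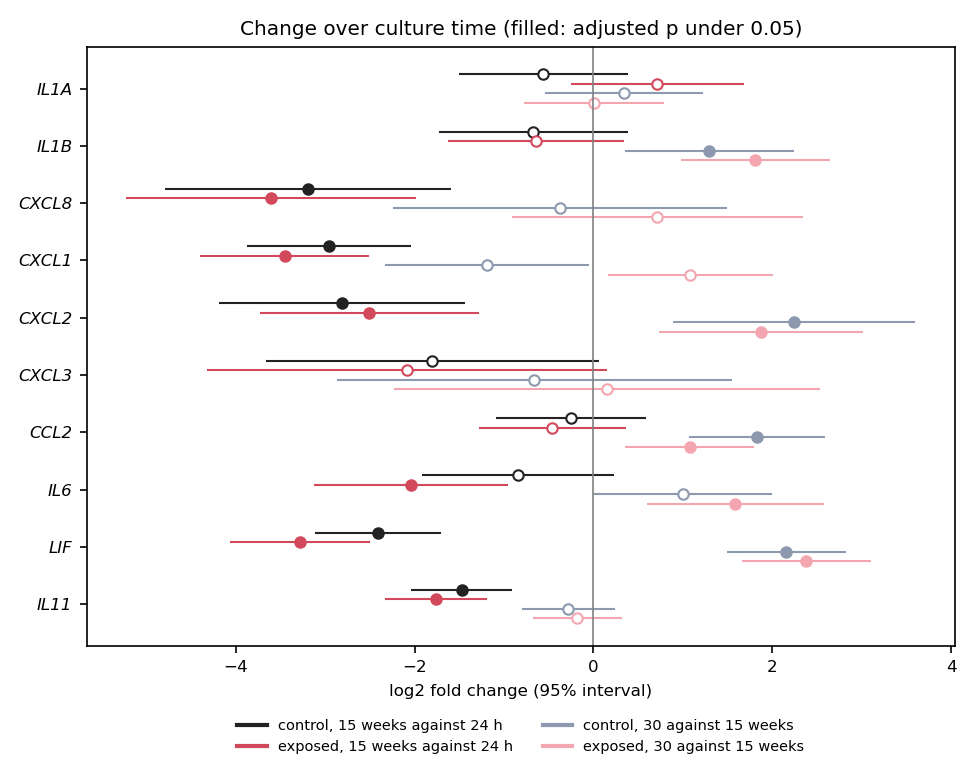
Log2 fold change with its 95% interval for each member between time points, in control and in exposed cells (edgeR); filled points have an adjusted p under 0.05. From 24 h to 15 weeks 5 and 6 members lay to the left with filled points, and from 15 to 30 weeks, across batches, 4 and 5 lay to the right.

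The order of the conditions differed between members. CXCL8, CXCL1, CXCL2, CXCL3 and IL11 had their 2 highest means at 24 h. These were 4.07 and 3.24 CPM for CXCL8, 3.86 and 3.24 for CXCL1, and 27.2 and 27.0 for IL11. For CXCL2 they were 1.20 and 0.783 CPM, and for CXCL3 0.435 and 0.284 CPM. For CXCL1 and IL11 the exposed and control samples at 24 h overlapped. For CXCL2 the 24 h controls overlapped the 30-week exposed samples. CXCL8 spanned 14.8-fold between its highest and lowest mean, CXCL1 21.2-fold and LIF 14.0-fold, against 3.56-fold for CCL2. CCL2 and IL1B had their 2 highest means at 30 weeks, which overlapped for CCL2 and stood apart for IL1B. Over the 15 samples the highest correlations of log2 CPM between members were CXCL8 with IL11 (r = 0.910), CXCL8 with CXCL1 (r = 0.885) and CXCL1 with IL11 (r = 0.855), and the lowest was CXCL3 with CCL2 (r = -0.420). These are descriptions over samples that share time point, batch and depth.

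The genes whose pattern was most like that of a member, among 13448 genes with at least 1 CPM on average, were for CXCL1 EFNB2 (r = 0.974 over 15 samples) and ASNS (0.969), for IL11 FBLIM1 (0.9749) and SMURF2 (0.974), and for LIF MCAM (0.962) and IMPDH2 (0.940). For CXCL8 they were NPR3 and NOP16 (both 0.938), for CCL2 TP53TG1 (0.932) and LARP6 (0.924), and for IL1B ACP6 (0.918) and USP14 (0.908). IL6 was most like FOXN3-AS1 (0.904) and ASL (0.888), and IL1A least tied to any gene, with OMD at 0.802 and SOS1 at 0.798. CXCL2 and CXCL3 averaged under 1 CPM and were not compared.

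Of 83 other genes of the same pathways, 62 were tested, and 0 of them passed at 24 h or at 15 weeks (edgeR; 0 and 4 at an unadjusted p under 0.05). At 30 weeks 12 were higher and 8 lower in exposed cells, against 12% and 11.7% of all genes. For the pathway genes, rose and fell mean higher and lower in exposed than in control cells at 30 weeks, not a change over time. Without exposed replicate 2 the counts were 14 and 12, in a fit that called 5704 of 16694 genes. Without control replicate 1 they were 7 and 6, in a fit that called 2491 of 16681. With each time point fitted alone 4 were higher. IL1RAP, MYD88, TRAF6, JAK2, CASP1, CAPN2, IL24, CXCL16 and ZC3H12A lost their calls there (adjusted p = 0.0645 to 0.0998, edgeR). Limma-voom with surrogate variables lost IL1RAP, JAK2 and CASP1 (adjusted p = 0.0740 to 0.115) and ZC3H12A (0.203). The replicate block lost CXCL16 (0.0596) and ZC3H12A (0.0612), and no minimum count lost ZC3H12A (0.0537). The median log2 difference of the 62 was 0.03, against 0.0078 over all genes.

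Among receptors and decoys, 3 of 9 tested genes rose and 0 fell, against 12% and 11.7% of all genes (median log2 0.38). IL6R, the receptor subunit that binds interleukin 6, read 2.06, 2.82 and 1.83 CPM in the 30-week controls and 15.5, 14.3, 14.6 and 14.5 CPM in exposed samples, 6.57-fold higher (log2 2.72, SE 0.18, adjusted p = 1.95e-08 by edgeR). The groups were far apart, and the exposed level lay near that of the 24 h controls (12.6 ± 1.69 CPM, SD, n = 2), with 6.82 and 6.11 CPM in control and exposed cells at 15 weeks. ACKR3, a scavenging receptor for chemokines, followed with 1.29, 1.19 and 1.75 CPM against 8.44, 6.55, 8.03 and 7.57 CPM (log2 2.43, SE 0.24, adjusted p = 1.75e-06). IL1RAP, the accessory chain of the interleukin 1 receptor, was higher by 0.53 (adjusted p = 0.0186), a call lost without control replicate 1 (adjusted p = 0.0953) or 3 (adjusted p = 0.0587). The ligand-binding chain IL1R1 (log2 0.13) and IL11RA (0.38) were not called, nor was LIFR, the LIF receptor (-0.34, adjusted p = 0.0769). LIFR was called lower without exposed replicate 2 (-0.43, adjusted p = 0.01003) or control replicate 3 (-0.44, adjusted p = 0.0363), and with surrogate variables, upper-quartile scaling or the replicate block (adjusted p = 0.0140, 0.0395 and 0.0429). IL6ST, the shared gp130 subunit, averaged 254 CPM in controls (SD 41.8, n = 3) against 255 CPM in exposed cells (SD 75.6, n = 4), with a log2 difference of 0.0012 that changed sign under 5 of the alternatives other than leaving out a replicate, and was called lower in 1 of them, limma-voom with surrogate variables (-0.30, adjusted p = 0.0401). IL1RN, the natural antagonist, had 0 to 2 counts in every sample. The chemokine receptors CXCR1, CXCR2 and CCR2 had at most 3 counts in any sample.

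Among NF-κB subunits, adaptors and feedback inhibitors, 2 of 22 rose and 4 fell, against 12% and 11.7% of all genes. The subunit RELA was not called, nor was the inhibitor NFKBIA (log2 -0.02, SE 0.14, adjusted p = 0.927; the sign turned under the replicate block). The 4 that fell were the co-regulator NFKBIZ (log2 -1.13, SE 0.13, adjusted p = 1.04e-05), the ubiquitin-editing inhibitor TNFAIP3 (-1.10, SE 0.22, adjusted p = 0.00181), its partner TNIP1 (-0.58, adjusted p = 0.00748) and the RNase ZC3H12A (-0.45, adjusted p = 0.0271), all in edgeR. Without control replicate 1 TNIP1 was at an adjusted p of 0.0510 and ZC3H12A at 0.155, and ZC3H12A was also not called without control replicate 3 (0.0683) or exposed replicate 4 (0.0566). NFKBIZ read 25.9, 36.3 and 32.4 CPM in the 30-week controls and 14.5, 13.0, 15.5 and 14.7 CPM in exposed samples, against means of 19.7 to 25.8 CPM in the 4 earlier groups. TNFAIP3 read 6.06, 6.57 and 7.41 CPM against 3.44, 3.26, 2.75 and 3.06 CPM. Its means in control and exposed cells were 4.16 and 4.53 CPM at 24 h and 1.12 and 1.28 CPM at 15 weeks. The adaptor MYD88 rose by 0.78 (SE 0.24, adjusted p = 0.0255) with overlapping groups, since exposed replicate 2 stood at 14.1 CPM and the other 3 at 27.9 to 31.9 CPM. Its log2 difference without exposed replicate 2 was 0.98, and the call was lost when control replicate 1 or 2, or exposed replicate 1, 3 or 4, was left out (adjusted p = 0.0530 to 0.116). TRAF6, the ubiquitin ligase below MYD88, rose by 0.39 (SE 0.11, adjusted p = 0.0181), a call lost without control replicate 1 or 3 or exposed replicate 1 (adjusted p = 0.0582 to 0.0637).

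In the STAT3 branch 1 of 9 rose (12% of all genes), the kinase JAK2 (log2 0.50, SE 0.14, adjusted p = 0.0150 by edgeR). The call was lost without control replicate 1 (adjusted p = 0.0759), with limma-voom and surrogate variables (0.115) and with each time point fitted alone (0.0756). JAK2 averaged 9.18 CPM in controls and 13.0 CPM in exposed cells at 30 weeks, against 22.3 and 24.5 CPM at 15 weeks. STAT3 itself and its feedback inhibitor SOCS3 were not called. Among inflammasome and interleukin 1 processing genes 2 of 9 rose and 1 fell, against 12% and 11.7% of all genes. CASP1, the protease that cleaves pro-interleukin 1β, read 2.32, 2.38 and 1.90 CPM in controls and 3.22, 7.57, 2.78 and 3.91 CPM in exposed samples (log2 0.99, adjusted p = 0.0201). Its means at 15 weeks were 5.87 CPM in controls and 4.09 CPM in exposed cells. Without exposed replicate 2 its log2 difference was 0.59 (adjusted p = 0.0273), and the call was lost without control replicate 1 (adjusted p = 0.0593) or 3 (adjusted p = 0.0659). CAPN2, a calpain subunit, rose by 0.49 (adjusted p = 0.0137, and 0.0694 with each time point fitted alone). Its means in control and exposed cells were 167 and 234 CPM at 30 weeks, against 385 and 387 CPM at 15 weeks. PYCARD, the inflammasome adaptor ASC, fell by 0.85 (SE 0.17, adjusted p = 0.00158). It averaged 33.3 CPM in controls and 18.5 CPM in exposed cells at 30 weeks, against 14.0 and 12.2 CPM at 15 weeks. The sensor NLRP3 was not called.

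Among other inflammatory outputs 4 of 13 tested genes rose and 3 fell at 30 weeks, against 12% and 11.7% of all genes. Whether any role differed from these shares was not tested. ICAM1, the leukocyte adhesion molecule, read 5.29, 5.42 and 5.15 CPM in controls and 28.0, 20.4, 18.9 and 24.9 CPM in exposed samples (log2 2.12, SE 0.16, adjusted p = 8.71e-08 by edgeR). VCAM1, another adhesion molecule, went the other way, from 348, 556 and 514 counts in controls to 2, 0, 0 and 3 in exposed samples, at least 168-fold lower against a floor of 3 counts per library. It had 0 counts in all 4 samples at 24 h and 2 to 30 counts at 15 weeks. SOD2, the mitochondrial superoxide dismutase that NF-κB induces, read 97.0, 99.9 and 89.8 CPM in controls and 47.4, 49.0, 44.7 and 47.5 CPM in exposed samples (log2 -1.02, SE 0.093, adjusted p = 8.05e-07), while its means in the 4 earlier groups were 45.1 to 48.5 CPM. The cytokine IL24 rose by 1.32 (adjusted p = 0.0212; 0.80 without exposed replicate 2, adjusted p = 0.0284, and not called without control replicate 2 or 3, adjusted p = 0.0659 and 0.0776).

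The rest of that list moved by less. The chemokine CXCL16 rose by 0.96 (adjusted p = 0.0304, and 0.0623 to 0.122 without control replicate 1 or exposed replicate 1, 3 or 4), the macrophage growth factor CSF1 by 0.89 (adjusted p = 0.00154), and the cytokine IL32 fell by 0.76 (adjusted p = 0.00224), all in edgeR. Without exposed replicate 2 the CXCL16 difference was 1.13 (adjusted p = 0.00484 in edgeR). PTGS2, OSM, CSF3 and CCL20 had at most 10 counts in any sample and were not tested.

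**Figure D5:**
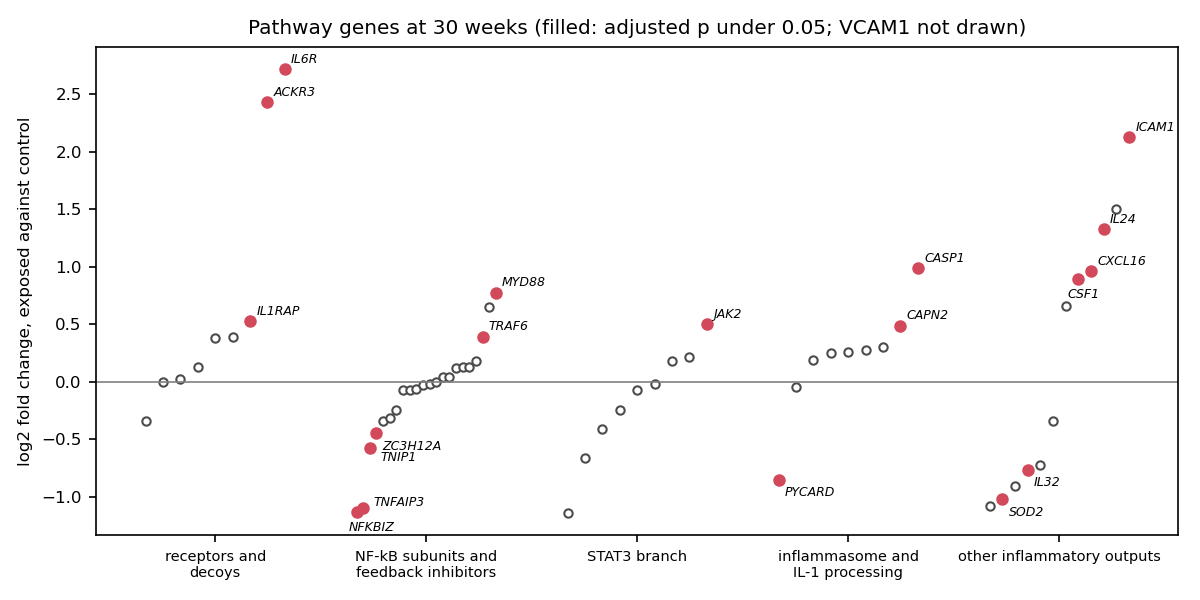
Log2 fold change of exposed against control cells at 30 weeks for the tested pathway genes by role (edgeR), sorted within each role; filled and named points have an adjusted p under 0.05, and VCAM1, at least 168-fold lower, is not drawn. IL6R (2.72), ACKR3 (2.43) and ICAM1 (2.12) stand highest, and NFKBIZ (-1.13) and TNFAIP3 (-1.10) are the lowest filled points.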

How the data were processed

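The authors filtered the reads of stranded, ribosome-depleted total RNA libraries with Rfastp, aligned the remainder to GRCh38 and assigned alignments to genes with Rsubread. The deposited values are raw counts per Entrez gene number. Whether counting used strand, and how reads with several matches were treated, is not given in the sources used here. Of 28395 genes, 27745 matched a symbol.

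Genes were filtered with filterByExpr over the 6 conditions, scaled by TMM, and fitted over all 15 samples with 1 mean per condition by edgeR's quasi-likelihood test (edgeR 4.0.16, R 4.3.3). P-values were adjusted by Benjamini and Hochberg over the 16740 genes tested, with a threshold of 0.05, in 9 comparisons. CPM is counts relative to the TMM-scaled library size. A prior count of 2 was added for log2 CPM. Intervals are at 95%, and the floor is 3 counts. The script was tested on simulated data.

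The members and lists were chosen with earlier results of these data known. Named were the 10 members; from each pathway role, up to 4 called genes with the largest change at 30 weeks and an average of at least 1 CPM; IL1R1, IL1RN, IL6ST, LIFR, IL11RA, NFKBIA and TNFAIP3 always; and the 2 genes most like each member. RELA, STAT3, SOCS3, NLRP3, TRAF6, ZC3H12A, CXCL16, CSF1, IL32 and the untested genes were named after their values were seen. Alternatives were DESeq2 1.42.0, limma-voom (limma 3.58.1) without and with 2 surrogate variables (sva 3.50.0), upper-quartile scaling, separate fits by time point, a minimum of 10 counts in all samples or no minimum, leaving out 6 small noncoding RNAs, a replicate block, and leaving out each replicate.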

Additional observations from a re-analysis of the deposited data

Results flagged for a closer look

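In 3 genes, among the members and most of the named pathway genes, a value in the 30-week exposed group lay far from the other 3 samples, each time in replicate 2: CXCL8 at 1.40 CPM (gap over range 0.832), TNIP1 at 56.6 CPM (0.882) and CXCL16 at 1.65 CPM (0.894), above Dixon's critical value for 4 samples. These 3 flags come from the same library and are not independent. Chance marks about 1 in 20 groups.

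The exposure effect differed between 15 and 30 weeks, by edgeR's test of the difference itself, for 6 of the 62 pathway genes tested. Over all genes 4.74% were called. On the log2 scale the change was 2.87 for IL6R (SE 0.27, adjusted p = 8.32e-06), 2.94 for ACKR3 (SE 0.38, adjusted p = 0.000191), 2.26 for ICAM1 (SE 0.27, adjusted p = 0.000101), -1.02 for SOD2 (SE 0.16, adjusted p = 0.000823) and -1.14 for NFKBIZ (SE 0.22, adjusted p = 0.00438). NFKBIZ was not called without control replicate 1 of 15 weeks (adjusted p = 0.0505). For VCAM1 the fitted change was -5.73 (SE 1.43, adjusted p = 0.0348), a value that depends on the prior count. Its call was lost without exposed replicate 1 or 2 of 15 weeks (adjusted p = 0.298 and 0.156) and without control replicate 1 or 2 of 30 weeks (adjusted p = 0.0532 and 0.0538). Time and batch cannot be told apart in these differences.

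In 3 genes the exposed samples lay on opposite sides of the controls at 24 h and at 30 weeks, without overlap at either, and the difference was not tested. At 24 h, where 0 genes were called, the groups did not overlap for 26% of all genes, and at 30 weeks for 27.3%. The log2 fold change was -0.057 and then 0.53 for IL1RAP, 0.18 and then -1.13 for NFKBIZ, and -0.24 and then 2.12 for ICAM1.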

How the results depend on the processing

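Of 1174 values for named genes under the alternatives, 1074 kept their direction and their side of the threshold, 63 lost a call, 9 gained one and 28 changed sign. The cause of the changes was not tested, except that requiring at least 10 counts in every sample left fewer members to test. Under that filter 1 member was higher at 30 weeks (2 in the report), 2 were lower at 15 weeks than at 24 h in controls and 2 in exposed cells (5 and 6), and 3 were higher at 30 than at 15 weeks in exposed cells (5). With surrogate variables 1 member was higher (IL1B was not called) and 2 lower (LIF and CCL2) at 30 weeks, and 1 was lower at 30 than at 15 weeks in exposed cells (0). With each time point fitted alone 1 member was lower at 15 weeks (0), and 4 pathway genes were higher at 30 weeks (12). DESeq2 called 1 member in the change from 15 to 30 weeks (0).

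Deviations of same-numbered samples correlated at -0.0601 at 24 h, 0.0290 at 15 weeks and -0.118 to 0.303 at 30 weeks. At 24 h and at 15 weeks every replicate gave the same value, which leaves 1 value per time point. So few values cannot decide whether the numbers pair samples. With the replicate block 1 member was higher at 30 weeks (IL1B was not called), 3190 genes were called against 3961, CXCL3 read 0.26 and NFKBIA 0.0022. IL6ST at 30 weeks read -0.028 by limma-voom, -0.30 with surrogate variables (called, adjusted p = 0.0401), -0.0095 fitted alone, -0.012 with at least 10 counts and -0.035 with upper-quartile scaling.

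Leaving out each replicate gave 1 to 2 members higher at 30 weeks (1 without control replicate 1 or exposed replicate 4), 7 to 14 pathway genes higher (7 without control replicate 1) and 6 to 12 lower, 0 to 1 members in the change from 15 to 30 weeks, 4 to 5 and 5 to 6 lower at 15 weeks than at 24 h, and 2 to 4 and 3 to 6 higher at 30 than at 15 weeks, in control and exposed cells. Calls over time were lost for CXCL8 without control replicate 1 of 15 weeks (adjusted p = 0.0603, edgeR), CXCL2 in controls without control replicate 2 of 15 weeks (0.0652 and, to 30 weeks, 0.111), and IL1B in controls without any of 4 samples (0.0568 to 0.150). In exposed cells they were lost without exposed replicate 1 of 15 weeks for CXCL2 (0.0554) and CCL2 (0.238), and for IL6 without exposed replicate 1 of 24 h (0.121) or 2 of 15 weeks (0.0962 and 0.140).

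Values that changed sign when a replicate was left out, none of them called, ranged at 24 h from -0.094 to 0.53 for CXCL1, -0.13 to 0.95 for CCL2 and -0.21 to 0.20 for IL11. At 15 weeks they ranged from -2.35 to 0.75 for CXCL8, -4.83 to 0.030 for CXCL3, -0.33 to 0.74 for CCL2 and -0.98 to 0.026 for IL6. At 30 weeks they ranged from -0.049 to 1.45 for CXCL8, -0.64 to 0.80 for CXCL3, -0.089 to 0.44 for IL6, -0.23 to 0.14 for IL6ST and -0.13 to 0.096 for NFKBIA.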
